A study of Mus musculus with 2 samples.

Results

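MHC class II presentation was followed through 9 genes, taken by symbol from the 32285 genes listed in the single-cell RNA-seq count tables. They were the classical chains H2-Aa, H2-Ab1 and H2-Eb1, the invariant chain Cd74, the peptide exchange factors H2-DMa and H2-DMb1, the transactivator Ciita, and the CD28 ligands Cd80 and Cd86. The rule took them by name, with no threshold on a measured value. All 9 were listed in both tables and all had transcripts in both libraries. The cells came from the calvaria of C57BL/6 mice, from cranial bone around a central defect with an edge of about 3 mm, 7 days after the injury. In the first library, the donors were treated with gambogic amide (GA), a small molecule that activates the nerve growth factor receptor TrkA, at 1.2 mg/kg in 10% DMSO. In the second, they received 10% DMSO alone (control). Both groups received daily intraperitoneal injections of 100 µL for 1 week, beginning 24 h before the injury. Each library pooled cells from 5 male mice of 2 months, and the dose and duration in the methods of the study differ from those in the labels used here. With 1 library per condition there were no replicates and no test could be made between GA and control. Every interval given below covers counting error only, not differences between mice.

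Class II molecules carry peptides from material that a cell has taken up, and show them to CD4+ T cells. An alpha and a beta chain assemble on the invariant chain CD74, which blocks the peptide groove until it is cut away by proteases in the endosome, and H2-DM then exchanges the remaining fragment for an antigenic peptide. Transcription of these genes depends on CIITA, which binds no DNA itself and is recruited by factors bound to the X and Y boxes of the promoters. Dendritic cells and B cells make CIITA constitutively, and macrophages make it mainly after interferon gamma. CD80 and CD86 are not class II genes but give the T cell its second signal through CD28, and they can be found on cells without class II.

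The 3 classical chain genes lie within one segment of chromosome 17 of the mouse genome (GRCm38), H2-Ab1 at chr17:34257689-34269419 on the plus strand, H2-Aa at chr17:34282744-34287823 on the minus strand and H2-Eb1 at chr17:34305867-34316674 on the plus strand. H2-DMa (chr17:34119541-34139101) and H2-DMb1 (chr17:34153072-34160230) lie beside them on the plus strand. Chromosome 16 holds Ciita at chr16:10480059-10528418, Cd86 at chr16:36603869-36666081 on the minus strand and Cd80 at chr16:38455561-38496335. The promoters below are shown because they carry the letters through which the genes of the group can be read together. Each line gives the 150 bases before the start of transcription, 5′ to 3′ in the direction of the gene, from RefSeq on GRCm38.p6, with matches to the Y box letters CTGATTGG or the X box letters GNAACNNAT in capitals.
H2-Eb1, chr17:34305717-34305866: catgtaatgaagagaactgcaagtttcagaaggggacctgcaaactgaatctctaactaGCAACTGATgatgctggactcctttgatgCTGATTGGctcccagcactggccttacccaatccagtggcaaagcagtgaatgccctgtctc
H2-Aa, chr17:34287824-34287973: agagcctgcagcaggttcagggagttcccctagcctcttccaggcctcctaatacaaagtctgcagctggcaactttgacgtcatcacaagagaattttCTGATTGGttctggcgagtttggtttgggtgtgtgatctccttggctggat
H2-DMb1, chr17:34153041-34153190: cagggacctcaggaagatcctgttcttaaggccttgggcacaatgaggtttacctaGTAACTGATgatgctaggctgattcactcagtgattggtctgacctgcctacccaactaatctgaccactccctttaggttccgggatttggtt
In H2-Eb1 the X box letters began 91 bases and the Y box letters 62 bases before the start. H2-Aa had the Y box letters 51 bases before its start, and H2-DMb1 had the X box letters 94 bases before its start. Both strands were searched over 300 bases, from 250 before to 50 after the start. Of the 2 listed starts of H2-DMa, one had the X box letters 227 bases upstream and the other had neither, and the Cd80 promoter had neither. Among all 32851 promoters of that length, 4.10% held the Y box letters, 7.92% the X box letters and 0.448% held both, as H2-Eb1 did. A match is a description of letters and not a binding site. The search allowed no mismatch at the fixed letters, so the lack of a match does not show that a box is lacking. Sequences were matched for 5 of the 9 genes. The RefSeq starts of H2-DMb1, H2-DMa and Cd80 lie inside the spans of these genes given above, which are from GENCODE. Those of H2-DMa and Cd80 lie further inside than that of H2-DMb1. The bases before them end at chr17:34122831 and chr17:34125517 for H2-DMa and at chr16:38458932 for Cd80. What is said of H2-DMa and Cd80 holds for these starts only.

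The GA table held 9322 barcodes with 182949385 transcripts counted by unique molecular identifiers (UMIs), and control had 8718 barcodes with 214993030 UMIs. Limits on depth, genes and mitochondrial share and the removal of predicted doublets left 8380 GA cells and 7553 control cells, with medians of 10968 and 16299 UMIs per cell. The libraries shared 23 barcodes, 18 of them among kept cells. Cells were grouped into 33 clusters without the use of any of the 9 genes or of other class II genes, and clusters were named from marker genes of each cell type, with "-like" for the rebuilt names. Levels are UMIs of a gene per 1000000 UMIs of the same cells (CPM). Neutrophil-like cells made up 52.6% of GA cells and 27.6% of control cells. The share of macrophage-like or monocyte-like cells was 17.0% and 25.4%, that of mesenchymal-like cells 9.43% and 22.1%, and that of B-like cells 6.99% and 7.67%. Dendritic-like cells were 81 of 8380 GA cells (0.967%, exact 95% interval 0.768 to 1.20) and 207 of 7553 control cells (2.74%, 2.38 to 3.13). Per 100 macrophage-like or monocyte-like cells there were 5.70 dendritic-like cells in GA and 10.8 in control. These ratios depend on how many cells are named macrophage-like or monocyte-like, and were 8.73 and 12.95 with no doublet removed, 9.52 and 13.8 at a clustering resolution of 0.5 and 15.4 and 19.3 with cells named one by one.

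Over all cells, the 3 classical chains summed to 561 CPM in GA and 951 CPM in control, a log2 ratio of GA over control of -0.76 (95% counting interval -0.77 to -0.75). H2-Aa, the alpha chain of I-A, was at 201 CPM in GA and 336 CPM in control. Its beta chain H2-Ab1 was at 196 and 337 CPM, and H2-Eb1, the beta chain of I-E, at 164 and 278 CPM. All 3 chains were lower in the GA library by a similar factor, with log2 ratios of -0.74, -0.78 and -0.76. The alpha chain gene of I-E was looked for under the symbol H2-Ea and was not found in the count tables. The sum thus holds H2-Eb1 transcripts and is no measure of complete I-E. Cd74, on chromosome 18, was at 503 CPM in GA and 793 CPM in control (log2 ratio -0.66). Ciita, the transactivator, had few transcripts, with 667 UMIs in GA and 1147 in control, and its level was 4.15 and 6.25 CPM (log2 ratio -0.59, -0.73 to -0.45). The H2-DM genes, which edit the peptides bound to class II, were closer between the libraries. H2-DMa was at 40.6 and 42.7 CPM (log2 ratio -0.07) and H2-DMb1 at 29.3 and 38.5 CPM (log2 ratio -0.39). H2-DMb1 has a near-identical neighbour, H2-DMb2, so the split of their transcripts is uncertain. Cd86 was at 101 CPM in GA and 120 CPM in control (log2 ratio -0.24), and Cd80 at 58.3 and 49.7 CPM, the single member that was higher in the GA library (log2 ratio 0.23).

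By these values 5 of the 9 genes were at least 1.5-fold lower in GA over all cells and 0 were at least 1.5-fold higher, where 18.6% of the 15319 genes with at least 200 UMIs were lower by that much and 8.83% higher. The members lower by that much were H2-Aa, H2-Ab1, H2-Eb1, Cd74 and Ciita. The median log2 ratio of the 9 genes was -0.59, against -0.08 for all genes measured. Counting all barcodes, without any filter, gave log2 ratios of -0.67 for H2-Aa, -0.72 for H2-Ab1, -0.69 for H2-Eb1, -0.59 for Cd74, -0.63 for Ciita and 0.28 for Cd80.

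**Figure D1:**
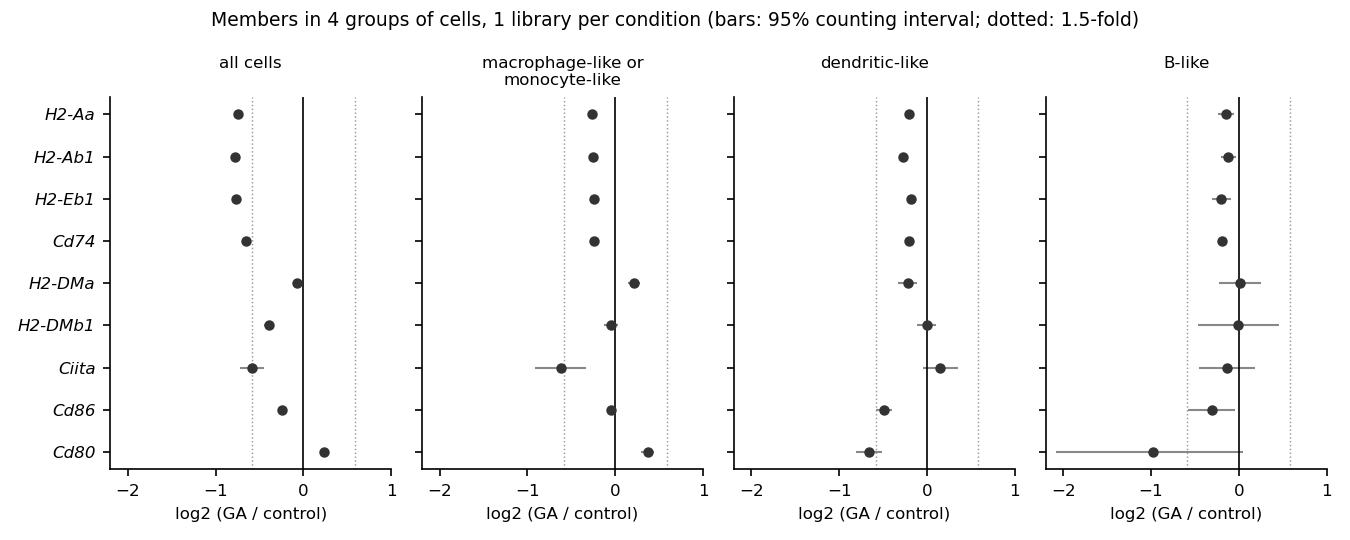
Log2 ratio of GA over control (horizontal axis) of each of the 9 genes in all cells, macrophage-like or monocyte-like, dendritic-like and B-like cells, with 95% counting intervals as bars and 1.5-fold as dotted lines. Over all cells the classical chains lie between -0.78 and -0.74 and Cd80 at 0.23, while in dendritic-like cells Cd80 (-0.66) and Cd86 (-0.49) lie furthest left.

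Most class II transcripts came from few cells. Dendritic-like cells held 41.6% of the classical chain UMIs of the GA library and 57.2% of those of control, macrophage-like or monocyte-like cells 46.7% and 35.9%, and B-like cells 6.28% and 3.36%. Cd74 was spread in a like way, with 33.4% and 48.8% in dendritic-like cells and 49.9% and 40.9% in macrophage-like or monocyte-like cells. Of the Ciita UMIs, dendritic-like cells held 46.0% in GA and 55.1% in control, and B-like cells 24.7% and 14.7%. H2-DMa had a further source in HSC-like cells, which held 18.3% of its UMIs in GA and 5.85% in control. These cells held 12.56% of the UMIs of all genes in GA and 3.465% in control. The clusters of this class were led by Elane, Prtn3 and Ctsg or by Pf4, Ctla2a and Ppbp. Cd86 was mainly in macrophage-like or monocyte-like cells (80.6% and 77.0%). Cd80 stood apart, with 51.8% of its UMIs in neutrophil-like cells in GA and 26.4% in control, and with 9.70% and 22.3% in mesenchymal-like cells. Of the UMIs of all genes, neutrophil-like cells held 26.6% in GA and 8.52% in control, and mesenchymal-like cells 27.3% and 51.2%.

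**Figure D2:**
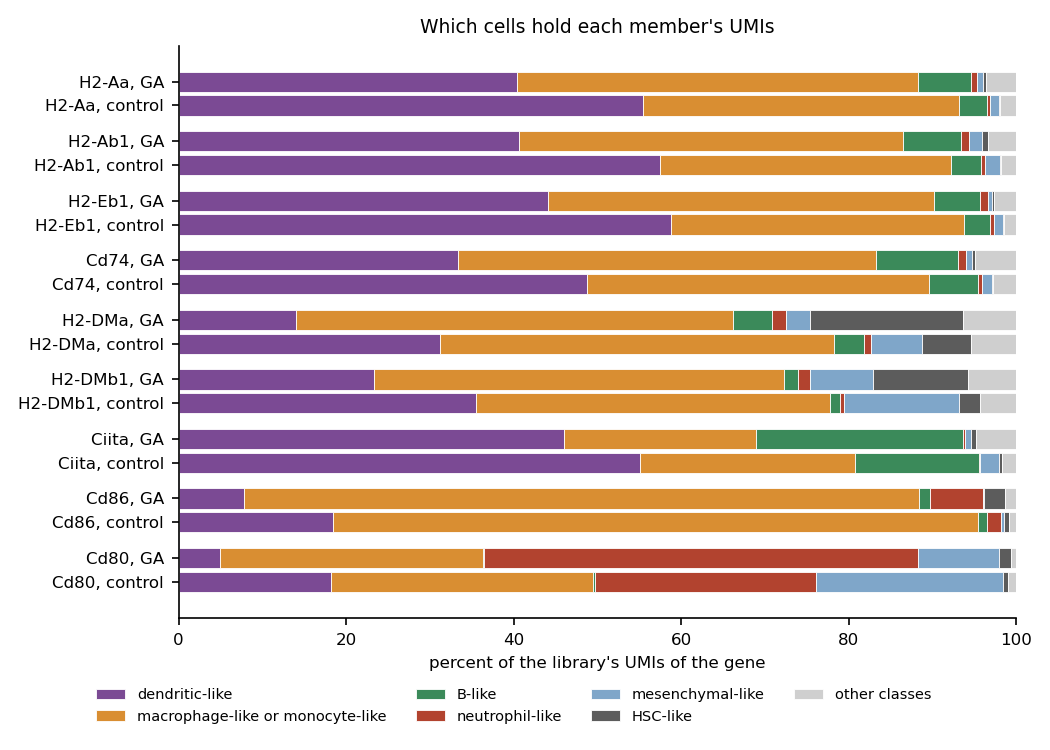
Percent of each gene's UMIs (horizontal axis) held by each class of cells, 1 bar per gene and library. The dendritic-like part of H2-Aa, H2-Ab1, H2-Eb1 and Cd74 is shorter in GA than in control, and the neutrophil-like part of Cd80 is longer (51.8% against 26.4%).

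The cell types thus entered the libraries in unequal shares, and the ratio over all cells holds both this and the level within each class. With the level of every class as in control and the shares of UMIs by class as in GA, the classical chains would be at 665 CPM (log2 ratio to control -0.52). With the shares as in control and the levels as in GA they would be at 820 CPM (-0.21). For Ciita the same values were -0.44 for the shares alone and -0.05 for the levels alone. For Cd80 they were 0.44 and -0.08, the latter a sum over classes in which it was higher in GA (macrophage-like or monocyte-like cells) and lower (dendritic-like and neutrophil-like cells). In a single library per condition, cell recovery and cell numbers in the tissue cannot be told apart.

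**Figure D3:**
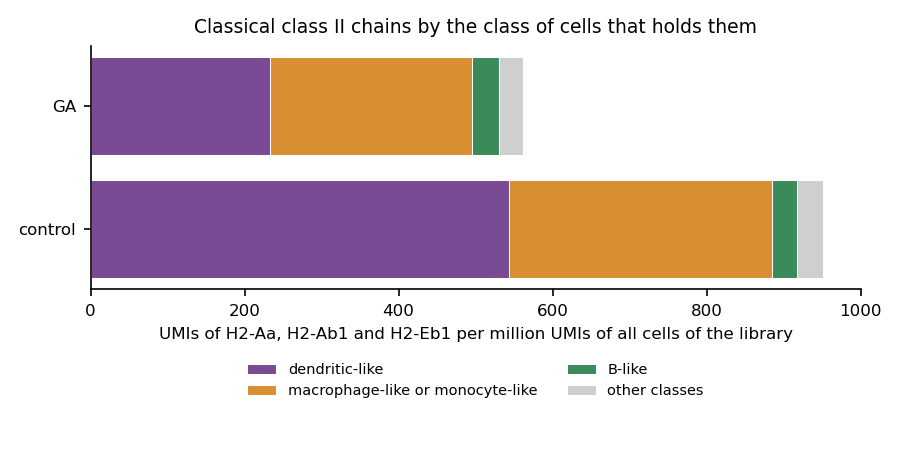
Classical chain level in CPM over all cells of a library (horizontal axis), split by the class of cells that held them, for GA and control. The bars end at 561 and 951, and the dendritic-like part is the longest in control and the macrophage-like or monocyte-like part in GA.

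Ranked by level, dendritic-like cells came first for all 9 genes in both libraries. For the classical chains they were followed in control by plasmacytoid dendritic-like cells (1464 CPM, 1383 to 1549) and macrophage-like or monocyte-like cells (1460 CPM, 1449 to 1472), whose intervals overlap, and then by B-like cells (957 CPM). In GA the order was macrophage-like or monocyte-like (1226 CPM), B-like (863 CPM) and plasmacytoid dendritic-like cells (789 CPM, 739 to 842). Ciita followed another order, with B-like cells (25.2 CPM in GA, 27.5 in control) above plasmacytoid dendritic-like cells (12.0 and 9.60) and macrophage-like or monocyte-like cells (4.46 and 6.88). Neutrophil-like cells, which should lack class II, were at 19.0 CPM in GA and 47.1 CPM in control for the classical chains, of which 1 cell held 32.0% and 55.4% of the UMIs. Mesenchymal-like cells were at 18.9 and 25.1 CPM. High values in osteoclast-like (694 and 101 CPM) and endothelial-like cells (573 and 25.6 CPM) came largely from 1 cell in GA, with 77.9% and 97.9% of the UMIs of its class.

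In dendritic-like cells, defined by markers such as Flt3, Zbtb46, Xcr1 and Ccr7, the classical chains were at 21786 CPM in GA and 25388 CPM in control (log2 ratio -0.22, -0.24 to -0.20). Cd74 was at 15671 and 18063 CPM, H2-DMa at 534 and 622 CPM (log2 ratio -0.22) and H2-DMb1 at 637 and 640 CPM (-0.01). Ciita was at 179 CPM in GA and 161 CPM in control (log2 ratio 0.15, -0.05 to 0.35). Every member other than Cd80 was within 1.5-fold between the libraries. Cd86 was at 735 CPM in GA and 1029 CPM in control (log2 ratio -0.49, -0.58 to -0.39). Cd80 was at 268 and 423 CPM (log2 ratio -0.66, -0.81 to -0.51), and was the 1 member of 9 at least 1.5-fold lower, with 0 higher. Among the 4149 genes measured in these cells 4.41% were lower and 2.84% higher by that much. The median log2 ratio of the members was -0.20, against 0.003 for all genes.

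After thinning each cell to 2000 UMIs, 32.1% of GA dendritic-like cells (22.2 to 43.4) and 50.7% of control cells (43.7 to 57.7) had a Cd80 transcript, and without thinning 81.5% and 86.0% did. For the classical chains the thinned shares were 91.4% and 95.7% and the unthinned 92.6% and 98.6%. Cd80 was lower in GA in all 16 alternative ways of processing in which the class was found, with log2 ratios of -0.87 to -0.21, and Cd86 in 15 of 16, with -0.78 to 0.06. Without the unnamed subclusters Cd80 was at 354 CPM in GA and 410 CPM in control (log2 ratio -0.21), no longer 1.5-fold apart, and Cd86 at 778 and 747 CPM (0.06). The classical chains turned as well, to 21304 and 17220 CPM (0.31). Without the 3 subclusters whose leading genes were markers of another class, Cd80 was at 322 and 392 CPM (-0.28), Cd86 at 860 and 1074 CPM (-0.32) and the classical chains at 25099 and 23481 CPM (0.10). The values of the class thus rested in part on subclusters that could not be named.

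Markers of other cells were present among the dendritic-like cells. All 10 neutrophil markers were higher in GA there, together 4183 CPM against 988 CPM in control, with single markers from 6.40 to 1759 CPM in GA and from 1.78 to 392 CPM in control. Macrophage or monocyte markers summed to 1454 and 971 CPM. Erythroid markers went the other way, with 17.45 CPM in GA and 187.9 CPM in control, and 6 of 7 were lower in GA. T or NK markers summed to 213 and 379 CPM, nearly all of it from the highest single marker (212 and 354 CPM). Of these 9 markers 7 were at 0 in GA and 2 in control. All 9 dendritic markers were above 0 in both libraries and summed to 1606 CPM in GA and 2077 CPM in control. The part of these cells in the lower Cd80 and Cd86 was not tested.

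The dendritic-like cells fell into 7 subclusters. Type 1 dendritic-like cells, led by Xcr1, numbered 8 in GA and 18 in control and had 24235 and 22363 CPM of the classical chains. The hemoglobin genes Hba-a1 and Hbb-bs were also among their leading genes. Migratory dendritic-like cells, led by Fscn1 and Cacnb3, numbered 20 and 53 and had 19502 and 14382 CPM (log2 ratio 0.44, 0.40 to 0.48), and in all 12 alternatives that held them the ratio was above 0 (0.18 to 0.72). In their subcluster led by Ccl5 and Il12b, the classical chains were at 12060 CPM over 12 GA cells and 4380 CPM over 34 control cells. In the subcluster led by the neutrophil granule genes Camp and Ngp the order was opposite, with 16809 CPM over 13 GA cells and 32542 CPM over 35 control cells. Cd80 was at 184 and 285 CPM in the type 1 dendritic-like cells and at 458 and 479 CPM in the migratory dendritic-like cells, so the latter did not share the lower value of the class. At these numbers of cells a few cells decide each value.

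In macrophage-like or monocyte-like cells the classical chains were at 1226 CPM in GA and 1460 CPM in control (log2 ratio -0.25, -0.27 to -0.23). No direction can be given, since 10 of 21 alternative ways of processing gave a ratio above 0, with values from -0.67 to 0.68. Among these 10 was the subtraction of the erythroid-like level, of which 1 cell held 92.5% of the UMIs in GA and 74.7% in control. Another left out 3 subclusters led by markers of progenitor, erythroid or osteoclast cells. They held 252 GA cells and 147 control cells, and without them the levels were 1598 and 1575 CPM (log2 ratio 0.02). Cd74 was at 1176 and 1388 CPM, H2-DMb1 at 67.2 and 69.7 CPM and Cd86 at 381 and 394 CPM. H2-DMa was at 99.3 CPM in GA and 86.0 CPM in control (log2 ratio 0.21, 0.14 to 0.28), above 0 in 16 of 17 alternatives. Cd80 was at 85.9 and 66.5 CPM (log2 ratio 0.37, 0.30 to 0.44), above 0 in 15 of 16 alternatives. Subtracting the neutrophil-like level of Cd80 (114 and 154 CPM) gave no ratio, since it was above the level of these cells in both libraries. With the subcluster shares as in GA and the levels as in control, the log2 ratios to control were 0.34 for Cd80 and 0.40 for H2-DMa. With the shares as in control and the levels as in GA they were 0.06 and -0.03. The higher values of both genes thus went mainly with the shares of the subclusters. Ciita was at 4.46 CPM in GA and 6.88 CPM in control (log2 ratio -0.62, -0.91 to -0.34), and its ratio was above 0 in 4 of 17 alternatives.

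Ciita was thus the 1 member of 9 at least 1.5-fold lower in these cells and 0 were higher, where 5.01% of 10633 genes were lower and 9.93% higher by that much. The median log2 ratio of the members was -0.24 and that of all genes 0.11, so relative to the latter the classical chains stood at -0.36. Neutrophil markers summed to 2993 CPM in the GA cells and 376 CPM in control, with all 10 higher in GA. Dendritic markers summed to 74.9 and 81.3 CPM. B cell markers summed to 121 and 223 CPM, most of it from the highest single marker (109 and 211 CPM). The part of these transcripts in the class values was not tested.

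Few of the macrophage-like or monocyte-like cells carried most class II. The 10% of cells with the most held 89.9% of the classical chain UMIs in GA and 87.8% in control. At 2000 UMIs per cell, 78.7% of GA cells and 76.9% of control cells had none, while 53 GA cells (3.77%, 2.83 to 4.90) and 89 control cells (4.65%, 3.76 to 5.70) had 30 or more and held 51.3% and 55.0% of the UMIs. The share with at least 1 classical chain UMI was 21.3% in GA (19.1 to 23.5) and 23.1% in control (21.2 to 25.1), and 42.5% and 50.2% without thinning, at median depths of 20918 and 20935 UMIs. The same thinned share was 3.06% and 5.63% in neutrophil-like cells, with median depths of 7059 and 5092 UMIs.

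Over the class as a whole, the partner genes were higher in the cells with 30 or more classical chain UMIs than in those with none, in both libraries. Cd74 went from 85.4 to 19050 CPM in GA and from 74.7 to 18560 CPM in control. H2-DMb1 went from 30.1 to 564 CPM and from 27.0 to 574 CPM, and Ciita from 0.710 to 52.9 CPM and from 0.742 to 87.7 CPM. Cd86 went from 365 to 491 CPM in GA and from 371 to 683 CPM in control, and Cd80 from 84.4 to 110 CPM and from 62.0 to 115 CPM. Cd209a, a marker of monocyte-derived dendritic cells, went from 0.497 to 51.8 CPM and from 1.25 to 122 CPM. In the cells with 30 or more UMIs C1qa, a macrophage complement gene, was at 1924 CPM in GA and 1951 CPM in control.

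The macrophage-like or monocyte-like cells were split into 15 subclusters, and the classical chains differed more between these than between the libraries as a whole. C1q macrophage-like cells, named from complement C1q genes, Mrc1 and Apoe, had 1612 CPM over 365 GA cells and 1530 CPM over 729 control cells (log2 ratio 0.08), and 7 of 13 alternatives gave a ratio below 0. Arg1 macrophage-like cells, named from Arg1, Spp1, Hmox1 and Mmp12, had 1015 CPM over 138 GA cells and 358 CPM over 283 control cells (log2 ratio 1.504, 1.43 to 1.57). All 13 alternatives gave a ratio above 0, from 0.39 to 1.81. The 5 cells with the most held 49.4% of these UMIs in GA and 52.6% in control, and without them the levels were 532 and 174 CPM (log2 ratio 1.62). Thinned to 2000 UMIs, 73.9% of the GA cells (65.8 to 81.0) and 87.6% of the control cells (83.2 to 91.2) had no classical chain UMI. These cells had Arg1 at 384 CPM in GA and 784 CPM in control. In GA, 5 cells with 10 to 29 such UMIs had Arg1 at 91.8 CPM, and 4 with 30 or more at 24.4 CPM. They held 26.8% and 39.1% of the classical chain UMIs. In control, 8 cells with 10 to 29 held 63.7% and had Arg1 at 36.8 CPM. Most class II of this group was thus in a few cells with little Arg1. Cd74 was at 1230 and 448 CPM in Arg1 macrophage-like cells and Cd80 at 60.7 and 43.1 CPM, while Ciita had 5 and 11 UMIs. An unnamed subcluster led by Arg1 and Tppp3 also had more in GA, with 1402 CPM over 193 GA cells and 463 CPM over 297 control cells.

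Ly6c2 monocyte-like cells, named from Ly6c2, Ccr2, Chil3 and Plac8, had 1912 CPM over 440 GA cells and 4252 CPM over 431 control cells (log2 ratio -1.15, -1.18 to -1.13). The ratio was below 0 in 11 of 13 alternatives and above 0 with no doublet removed (0.38) and at a lower clustering resolution (0.68). Cd74 was at 1864 and 4002 CPM there, Ciita at 7.90 and 22.9 CPM (log2 ratio -1.53, -1.96 to -1.12) and H2-DMb1 at 111 and 183 CPM. After thinning, cells of this group with no classical chain UMI had Ly6c2 at 1267 CPM in GA and 1195 CPM in control. Those with 10 to 29 held 41.8% and 30.2% of these UMIs and had Ly6c2 at 295 and 313 CPM. Those with 30 or more held 51.0% and 63.6% and had it at 44.8 and 227 CPM. Most class II of this group was thus in cells with less Ly6c2. Ccr2 differed less, at 863 and 974 CPM with none and 689 and 840 CPM with 30 or more. Cd80 was at 177 and 169 CPM with none and 185 and 162.5 CPM with 30 or more, so its rise over the whole class was not seen in control here. Cd86 was at 496 and 545 CPM in all Ly6c2 monocyte-like cells and Cd80 at 174.5 and 156 CPM. Of their 3 subclusters 2 were lower in GA, with 569 and 2923 CPM in cells led by Chil3 and Ly6c2 and 962 and 4228 CPM in cells led by Vcan and Chil3, while the third, led by Arg1 and Ifit1, had 5483 and 5162 CPM. Non-classical monocyte-like cells had 2009 CPM over 32 GA cells and 2981 CPM over 34 control cells, of which 1 cell held 66.0% and 33.96% of the UMIs.

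**Figure D4:**
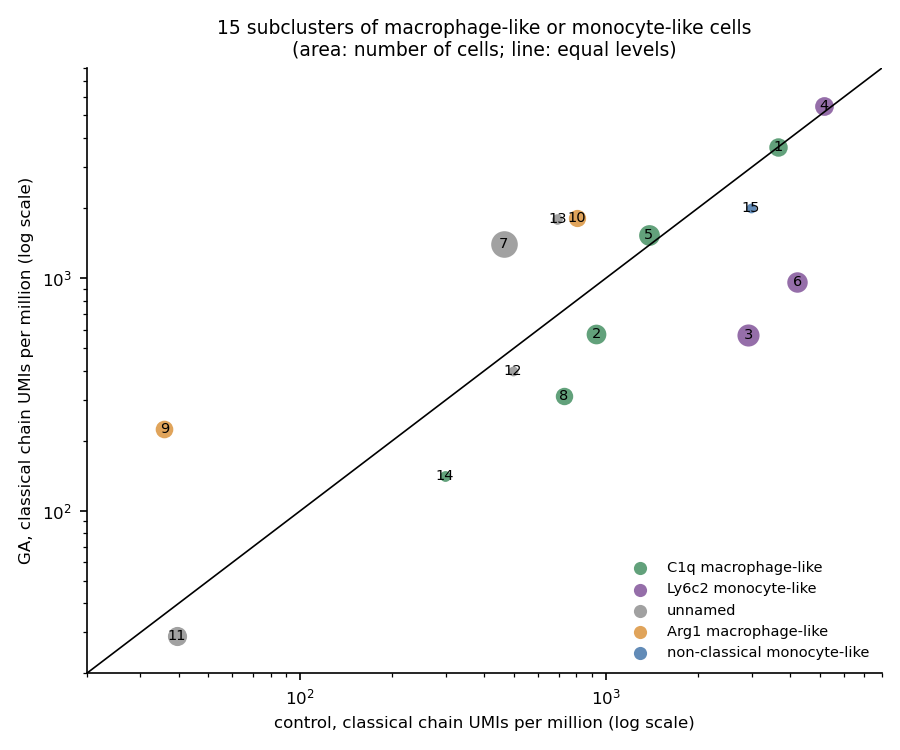
Classical chain level in CPM in each of the 15 subclusters of macrophage-like or monocyte-like cells, control on the horizontal and GA on the vertical log axis, with area for the number of cells and the line for equal levels. The Arg1 macrophage-like subclusters 9 and 10 lie above the line, the Ly6c2 monocyte-like subclusters 3 and 6 below it and subclusters 1 and 4 on it (3676 and 3645 CPM, 5483 and 5162 CPM).

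B-like cells had the classical chains at 863 CPM in GA and 957 CPM in control (log2 ratio -0.15, -0.20 to -0.10), and Cd74 at 1203 and 1376 CPM. None of the 7 members measured with at least 200 UMIs was past 1.5-fold in either direction, where 0.498% of 7029 genes were lower and 0.512% higher. Ciita was at 25.2 and 27.5 CPM, H2-DMa at 46.4 and 45.8 CPM and Cd86 at 33.9 and 41.9 CPM. Class II was low in pro-B or large pre-B-like cells, at 96.5 CPM over 147 GA cells and 101 CPM over 109 control cells, and high in mature B-like cells, at 4087 CPM over 189 GA cells and 4195 CPM over 219 control cells. In the subcluster led by Fcer2a, a marker of follicular B cells, the chains were at 8905 CPM in GA and 8399 CPM in control. Cd80 had 13 and 24 UMIs in B-like cells, under the minimum of 200. All 9 B cell markers were present, together 13405 CPM in GA and 12302 CPM in control, and neutrophil markers summed to 993 and 415 CPM there, with all 10 higher in GA. The part of the latter in the values of B-like cells was not tested. Plasmacytoid dendritic-like cells had 789 CPM of the classical chains over 73 GA cells and 1464 CPM over 72 control cells (log2 ratio -0.89, -1.02 to -0.77), and the 5 cells with the most held 42.2% and 30.7% of these UMIs.

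Set against Cd74, the chains kept nearly the same proportion in both libraries but not in every class. Per 100 UMIs of Cd74 there were 38.3 of H2-Aa in GA (37.6 to 39.1) and 39.0 in control (38.4 to 39.6) in macrophage-like or monocyte-like cells. The same value was 48.4 and 48.2 in dendritic-like cells and 25.8 and 24.9 in B-like cells. H2-DMa per 100 UMIs of Cd74 was 8.45 in GA and 6.19 in control in macrophage-like or monocyte-like cells, and 3.41 and 3.44 in dendritic-like cells.

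Cd80 had its own distribution. In neutrophil-like cells it was at 114 CPM in GA and 154 CPM in control (log2 ratio -0.44, -0.51 to -0.36). Thinned to 2000 UMIs, 22.3% of GA neutrophil-like cells (21.1 to 23.6) and 26.8% of control cells (24.9 to 28.8) had a Cd80 UMI, against 1.61% and 1.10% of erythroid-like cells, and without thinning 42.8% and 44.5% of neutrophil-like cells did. Median depths were 7059 and 5092 UMIs in neutrophil-like cells and 6670 and 5878 UMIs in erythroid-like cells. Cd86 was at 23.9 and 22.6 CPM in the neutrophil-like cells. Mesenchymal-like cells had Cd80 at 20.7 and 21.6 CPM and Cd86 at 0.638 and 0.766 CPM.

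Across the 33 clusters, with both libraries summed, the Pearson correlation of log2(CPM + 10) with the classical chains was 0.96 for Cd74, 0.85 for H2-DMa, 0.82 for H2-DMb1, 0.82 for Ciita, 0.76 for Cd86 and 0.10 for Cd80. The clusters share libraries, depth and free RNA, so these values are descriptions. Outside the class II lists, the pattern most like that of the classical chains among 12058 genes was, among those named here, that of Pkib (0.87), Cd180 (0.83), Necap2 (0.82) and Phf11b (0.81). For Ciita it was that of Ccr7 (0.94), Il4i1 (0.90), Btla (0.85), Mreg (0.81) and Kynu (0.79). For Cd86 it was that of Irf5 (0.90), Tlr1 (0.88), Gm6377 (0.86), Gm35154 (0.83) and Rel (0.83). For Cd80 it was that of Slc7a11 (0.88), Rab11fip1 (0.87), Gm14548 (0.87), Oas2 (0.86) and Arih2 (0.86).

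Other genes of the pathway were grouped by role. Their values were not run under the alternative ways of processing, so how far they depend on the clusters is not known. Among other class II chains H2-DMb2, H2-Oa, H2-Ob and H2-Eb2, 2 of 4 were at least 1.5-fold lower in GA dendritic-like cells, H2-DMb2 at 93.7 and 175 CPM and H2-Oa, a chain of the H2-O inhibitor of H2-DM, at 58.8 and 119.5 CPM. Of all genes measured there, 4.41% were lower by that much. Of 4 genes that process antigen or the invariant chain, 1 was lower by that much in macrophage-like or monocyte-like cells. This was Ctsl, the protease cathepsin L, at 1087 and 1683 CPM, where 5.01% of all genes measured were lower by that much. Ctss, the main protease of the invariant chain, was at 1953 and 2524 CPM and the lysosomal thiol reductase Ifi30 at 603 and 460 CPM. Among 3 genes of class II turnover, Cd83, which protects class II from ubiquitination by MARCH1, was lower over all cells (82.6 and 140 CPM), in macrophage-like or monocyte-like cells (322 and 494 CPM) and in B-like cells (41.0 and 69.8 CPM). The ligase March1 was higher over all cells (42.5 and 26.8 CPM), while in macrophage-like or monocyte-like cells it was at 67.7 and 62.1 CPM.

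Of 7 factors that bind the class II promoters, 0 were past 1.5-fold over all cells. In macrophage-like or monocyte-like cells 1 was higher, Nfyb, a subunit of the Y box factor, at 27.2 and 15.9 CPM. Of all genes measured, 18.6% were lower and 8.83% higher by that much over all cells. The same shares were 5.01% and 9.93% in macrophage-like or monocyte-like cells, 4.41% and 2.84% in dendritic-like and 0.498% and 0.512% in B-like cells. Of the 7 genes of the interferon gamma signal, 0 were past 1.5-fold among the 7 measured over all cells and among the 6 measured in each of macrophage-like or monocyte-like, dendritic-like and B-like cells. Irf1 was at 59.1 and 71.8 CPM in macrophage-like or monocyte-like cells, and Ifng had 0 UMIs in them and in dendritic-like cells. Among other costimulatory or inhibitory genes, 2 of 4 measured were lower in dendritic-like cells and 2 of 5 in macrophage-like or monocyte-like cells. In both classes 0 were higher, where 4.41% of all genes were lower in the former and 5.01% in the latter. Cd274 (PD-L1) was lower in dendritic-like cells (124.5 and 240.0 CPM) and in macrophage-like or monocyte-like cells (52.3 and 88.2 CPM). Pdcd1lg2 (PD-L2) was lower in dendritic-like cells (44.2 and 80.8 CPM) and Tnfsf9 (4-1BB ligand) in macrophage-like or monocyte-like cells (36.4 and 64.7 CPM). Cd274 and Pdcd1lg2 encode ligands of an inhibitory receptor of T cells, so the 2 lower genes of this list in dendritic-like cells were inhibitory ligands. The CD28 ligand Cd80, counted among the members and not in this list, was also lower there (268 and 423 CPM). Of 3 measured receptors for class II and its costimulators, Lag3 (4.08 and 8.09 CPM) and Cd28 (3.68 and 7.67 CPM) were lower in macrophage-like or monocyte-like cells. Class I presentation displays peptides made within the cell. Its 9 genes had median log2 ratios of 0.29 over all cells, 0.11 in macrophage-like or monocyte-like cells and 0.15 in dendritic-like cells. The medians of all genes in these groups were -0.08, 0.11 and 0.003, so in macrophage-like or monocyte-like cells class I did not differ from all genes. In B-like cells class I was at 0.002 and all genes at -0.004. Psmb9, a subunit of the immunoproteasome, was at 93.6 and 59.5 CPM in macrophage-like or monocyte-like cells and was the 1 class I gene past 1.5-fold there. Over all cells the genes of these lists at least 1.5-fold lower in GA were H2-DMb2, Ctsl, Cd83, Tnfsf4, Tnfsf9 and Lag3. March1 and Psmb9 were higher by that much. Among all genes 18.6% were lower and 8.83% higher. In B-like cells Cd83 was the single gene of these lists past 1.5-fold, where 0.498% of all genes were lower.

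**Figure D5:**
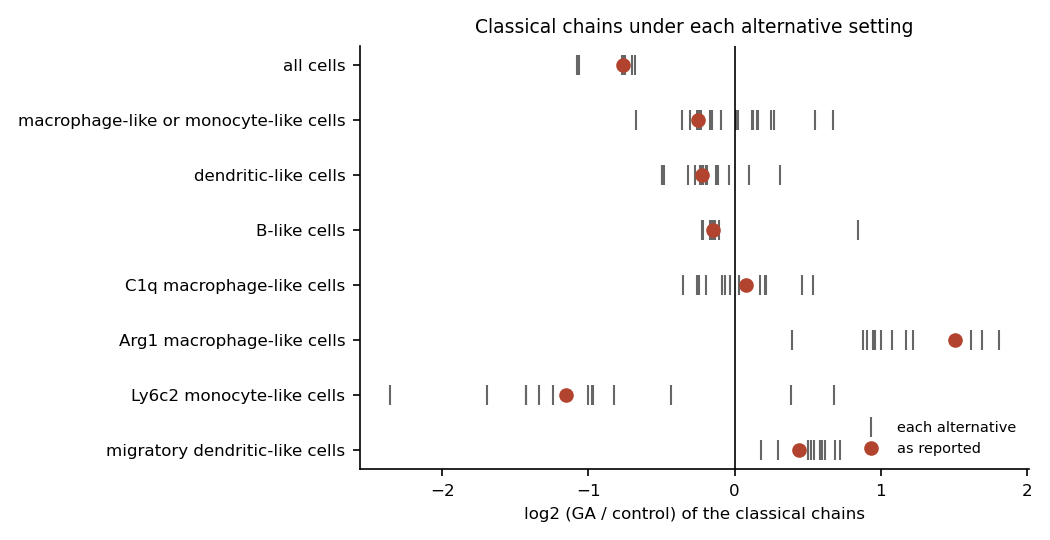
Log2 ratio of GA over control of the classical chains (horizontal axis) as reported (dot) and under each alternative way of processing (ticks), for 8 groups of cells. The ticks stay on one side of 0 for all cells, Arg1 macrophage-like cells and migratory dendritic-like cells, and lie on both sides for macrophage-like or monocyte-like cells (-0.67 to 0.68), dendritic-like, B-like, C1q macrophage-like and Ly6c2 monocyte-like cells.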

How the data were processed

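Cells were profiled by droplet single-cell RNA-seq in 1 GA and 1 control library. The deposited files hold UMI counts per gene and barcode, which the authors made with Cell Ranger against mm10 (version 7.0.1 per the file headers), with no normalization. Doublet removal is part of the study's methods, but the matrices hold all called barcodes. Cells with 500 to 140000 UMIs, 200 to 9500 genes and at most 15% mitochondrial UMIs were kept, and genes found in at least 3 cells. Scrublet's method marked 0 GA and 39 control barcodes (0.447%) by its automatic threshold, under the floor of 0.5%, so the top scores were removed at 0.8% per 1000 barcodes (656 and 540 cells within the limits). Pearson residuals (theta 100) of 2000 variable genes, without the 9 members and other class II genes, gave 50 principal components, joined over libraries by a Harmony-type correction (theta 2, lambda 1, sigma 0.1), and Leiden clusters (15 neighbours, resolution 1, seed 1). Macrophage-like or monocyte-like, dendritic-like and B-like cells were clustered again in the same way.

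Clusters were named from at least 3 markers found in 10% of cells and 2-fold over the rest, with a score of at least 3. Where the class with the highest score failed these rules, the next was tried if its score lay within 0.5. Names with "or" each belong to a single fixed marker list, and a subclass needed a margin of 0.5. These naming thresholds were set after seeing the data. Median depths were 10968 and 16299 UMIs per cell. UMIs were summed per class and library and given as CPM, with exact Poisson intervals, exact conditional binomial intervals for log2 ratios and Clopper-Pearson intervals for shares, all at 95%. PCR duplicates are removed by UMIs, and the intervals cover counting error only. With 1 library per condition no test was run. Genes with at least 200 UMIs over both libraries in a class were counted as higher or lower from 1.5-fold. Shares of cells with a UMI were taken after thinning each cell to 2000 UMIs, leaving out shallower cells (13 GA and 9 control macrophage-like or monocyte-like cells). Genes most like a member had the highest correlation over clusters among genes with at least 1000 UMIs, with a pseudocount of 10, and the 5 highest outside the lists are named, except where an item is not reported here. Named genes are the 9 members and the listed genes of the pathway that were past 1.5-fold, with others of the same lists given for comparison. The members and lists were chosen with earlier results of these data known. Gene positions are from GENCODE vM21 and promoters from RefSeq. The log2 ratios and their intervals were tested on simulated counts, and the thinning on a part of the control barcodes. Cell limits, doublet removal, clustering, naming and the split into shares and levels were not tested in this way. Alternatives to cell limits, doublets, clustering, naming, weighting, thinning, scaling and background are given in the closing section. Python 3.11.15, scanpy 1.11.5, anndata 0.12.19, numpy 2.4.6, scipy 1.17.1, pandas 2.3.3, scikit-learn 1.9.0, leidenalg 0.10.2 and matplotlib 3.10.9 were used.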

Additional observations from a re-analysis of the deposited data

Results flagged for a closer look

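Opposite directions of the GA to control ratio in related groups of cells drew attention in 3 cases, and none of these differences was tested, since each condition has 1 library. Cd80 was higher in GA in macrophage-like or monocyte-like cells (log2 ratio 0.37) and lower in dendritic-like cells (-0.66), a gap of 1.028. Without unnamed subclusters the values were 0.641 and -0.211. With the subcluster shares as in control and the levels as in GA they were 0.06 and -0.51. The classical chains were lower in GA in Ly6c2 monocyte-like cells (-1.15) but at 0.08 in C1q macrophage-like cells, a gap of 1.229. They were higher in GA in Arg1 macrophage-like cells (1.504), a gap of 2.657 to the Ly6c2 monocyte-like cells. The ratio of the Ly6c2 monocyte-like cells turned to 0.38 with no doublet removed and to 0.68 at a clustering resolution of 0.5, and that of the C1q macrophage-like cells lay on both sides of 0 over 13 alternatives.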

How the results depend on the processing

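No paired analysis was possible because each condition has 1 library. All values are log2 ratios of GA over control for the classical chains unless named, and where a value moved or turned, the cause was not tested. Over all cells every alternative gave a ratio below 0, with -0.701 with no doublet removed, -1.062 as a mean over cells, -1.075 after thinning each cell to 2000 UMIs and -0.684 relative to the median of all genes. In macrophage-like or monocyte-like cells the ratio turned to 0.676 with no doublet removed, 0.158 with at most 10% mitochondrial UMIs, 0.122 with at least 2000 UMIs per cell, 0.252 with no Harmony, 0.552 and 0.125 at resolutions of 0.5 and 2, 0.156 with another seed, 0.00719 with log1p values, 0.266 with the erythroid-like level subtracted and 0.0213 without subclusters led by markers of another class. It moved to -0.672 with class II genes among the variable genes, -0.0916 with cells named one by one, -0.161 as a mean over cells, -0.165 after thinning, -0.36 relative to the median, -0.227 with the neutrophil-like level subtracted, -0.308 without the 5 cells with the most and -0.157 without unnamed subclusters. In dendritic-like cells it was -0.319 with no doublet removed, -0.495 with at least 2000 UMIs, -0.036 with no Harmony, -0.497 with log1p values, -0.483 with cells named one by one, -0.126 as a mean over cells, -0.113 after thinning, -0.198 with the erythroid-like level subtracted, -0.19 without H2-Ab1, -0.24 without H2-Eb1 and -0.272 without the 5 cells with the most. It turned to 0.307 without unnamed subclusters and 0.0961 without those led by markers of another class. With class II genes among the variable genes no cluster was named dendritic-like, so there is no value. In B-like cells it was -0.213 as a mean over cells and -0.226 after thinning, and turned to 0.845 with the erythroid-like level subtracted, where 1 erythroid-like cell held 92.5% and 74.7% of the UMIs. The Ly6c2 monocyte-like ratio turned to 0.383 with no doublet removed and 0.68 at a resolution of 0.5. Ciita in macrophage-like or monocyte-like cells turned to 0.209 with no doublet removed, 0.0507 with no Harmony, 0.146 at a resolution of 0.5 and 0.0274 after thinning, and Cd80 in B-like cells to 0.0366 with no doublet removed. With no minimum of UMIs, 1 member (Cd80) was lower in B-like cells. The thinned share of macrophage-like or monocyte-like cells with a classical chain UMI, lower by 1.87 percentage points in GA as reported (-1.87), turned to 5.875 with no doublet removed, 0.611 with at most 10% mitochondrial UMIs, 1.146 with at least 2000 UMIs, 1.596 with no Harmony, 5.323 and 0.689 at resolutions of 0.5 and 2, 0.637 with another seed and 0.294 with log1p values, and was -5.563 with class II genes among the variable genes and -7.699 with no thinning. Of 36 ratios of single members, 10 kept their sign in all their alternatives (482 in all). Genes of the pathway other than the members were not run under the alternatives. Without unnamed subclusters, Cd80 in dendritic-like cells was at -0.211, short of 1.5-fold, and Cd86 there at 0.0595. The alternatives on subclasses, on the cells with the most UMIs, on unnamed or otherwise led subclusters and on the neutrophil-like level were chosen after seeing the data. Depth limits Ciita most, with 667 and 1147 UMIs, and the dendritic-like subclusters, with 8 to 49 cells per library.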

Other observations

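H2-DMa and H2-DMb1 were also found in HSC-like cells, a class named from stem and progenitor markers, with Kit, Cd34, Elane and Prtn3 among them. H2-DMa was there at 59.3 CPM over 442 GA cells and 72.1 CPM over 195 control cells, and H2-DMb1 at 26.4 and 28.1 CPM. Per 100 UMIs of Cd74 these cells had 344 UMIs of H2-DMa in GA and 222 in control, while macrophage-like or monocyte-like cells had 8.45 and 6.19. The former ratios rest on a low Cd74 level, at 17.2 CPM in GA and 32.5 CPM in control (347 and 207 UMIs). Neutrophil-like cells had Cd74 at 19.2 and 41.8 CPM. Plasma-like cells, the B lineage cells that secrete antibody, had Cd74 at 2021 CPM over 8 GA cells and 2589 CPM over 11 control cells, and the classical chains at 136 and 264 CPM with 49 and 94 UMIs. Ciita had 0 UMIs in the plasma-like cells of both libraries.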
